A study of Mus musculus with 6 samples.

Results

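The genes described here encode the machinery of mitosis and cytokinesis: the cyclins and kinase that start mitosis, the spindle and its motors, the kinetochore, the checkpoint that watches it, and the proteins that part the daughter cells. They were compared between lungs of mouse embryos at E12.5 that carried Fzd2Flox/Flox together with Shh cre/+ (mutant, 3 arrays) and lungs with Shh cre/+ alone (control, 3 arrays). Both groups therefore carried 1 Cre allele at the Shh locus, and they differed by the floxed alleles of Fzd2, a Frizzled receptor for Wnt ligands. Of 36 listed genes, 35 were measured by a probe set with exactly 1 gene symbol in the platform annotation, out of 22180 genes in all. The exception was Ccnb1, which is not analysed here.

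Shh is expressed in the lung epithelium and not in the mesenchyme around it, so the Cre was aimed at the epithelium, while the lung RNA on each array came from the dividing cells of other types too. In whole tissue, fewer dividing cells and less RNA per dividing cell cannot be told apart. The labels call the replicates biological but do not say whether each was 1 lung or a pool. The input was 100 ng of RNA per array, and the 6 array medians, taken over 41345 probe sets, spanned only 7.29 to 7.32 on the log2 scale. Markers of lung epithelium and mesenchyme were well within the measured range, for example Nkx2-1, the lung and thyroid transcription factor, with means of 10.08 in mutant and 10.49 in control lungs. Fzd2 itself stood at 9.67, 9.07 and 9.54 in mutant lungs, against 9.57, 9.82 and 9.75 in control lungs. The first mutant array fell inside the span of the controls, and limma, a linear model with variances shared across genes, did not separate the groups (log2 difference -0.29, SE 0.15, adjusted p = 0.475). Whether that probe set covers the floxed stretch is not known here, so its level checks little. Other genes set 3 arrays apart. Mutant replicate 2 was high in genes of adipose tissue (list mean 2.40 log2 units above the control mean, against -0.20 to 0.33 in the other 5 arrays), control replicate 1 was high in genes of adult small intestine (1.99 above, against -1.10 to -0.88), and control replicate 2 was low in Y-linked genes (-3.25, against 1.52 to 1.65). The counts of mitosis and cytokinesis genes with a lower mean are given with and without each of these arrays. Counts for related lists are given without some of them, and no fit left out all 3.

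A cell enters mitosis when Cdk1, bound to cyclins A and B, becomes active, and it leaves when the anaphase-promoting complex, with its activator Cdc20, has cyclin B and securin destroyed. Until every kinetochore is held by spindle microtubules, the checkpoint proteins of the Bub and Mad families keep Cdc20 in check. Most of these genes are transcribed in waves that peak in G2 and mitosis, so their RNA in a tissue is commonly read as a measure of proliferation. In the lung bud, proliferation of the epithelium at the tips and of the mesenchyme accompanies branching.

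The promoters of the listed genes share letters that the choice of genes did not use. Textbook elements of G2 and mitotic promoters are the cell cycle homology region, which recruits the DREAM and MuvB complexes, and CCAAT boxes, which bind the factor NF-Y. RefSeq promoters of assembly GRCm38.p6, each holding 250 bases before and 50 bases after a gene start, were found for 31 of the 36 genes, Ccnb1 among them. These are 34 promoters, since Bub3, Ect2 and Prc1 have 2 each, which overlap. TTTGAA or TTCGAA, on either strand, stood in 76.5% of them (26 of 34), against 19.2% of all 32851 promoters. CCAAT, on either strand, stood in 76.5% (26 of 34) as well, against 37.4% of all promoters. Both stood together in 67.6% (23 of 34), against 7.52% of all. The E2F letters TTTCCCGC, TTTCGCGC, TTTGCCGC or TTTGGCGC, known from S phase promoters, stood in 5.88% (2 of 34, those of Cdk1 and Kif18a), against 2.26% of all. In promoters of 24 DNA replication and S phase entries the order was different: the homology region stood in 3 of 24, CCAAT in 18 of 24 and the E2F letters in 9 of 24. These are matches of letters, described without a test, and not shown binding sites. The 7 listed genes with both elements in the last 100 bases before the start are printed to show how they are laid out. Each sequence runs 5′ to 3′ along the gene's strand up to the base before the start, and capitals mark CCAAT or its complement ATTGG, and TTTGAA or its complement TTCAAA. In none of them did the 2 elements overlap.
Cdk1, chr10:69352913-69353012, minus strand: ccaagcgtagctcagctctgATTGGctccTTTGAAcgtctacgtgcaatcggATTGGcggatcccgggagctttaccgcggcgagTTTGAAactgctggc
Cdc20, chr4:118437344-118437443, minus strand: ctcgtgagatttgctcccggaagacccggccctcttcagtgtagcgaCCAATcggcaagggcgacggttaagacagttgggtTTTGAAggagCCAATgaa
Bub3, chr7:131560270-131560369, plus strand: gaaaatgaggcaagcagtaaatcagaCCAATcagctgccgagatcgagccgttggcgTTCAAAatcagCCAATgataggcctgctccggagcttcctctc
Espl1, chr15:102296193-102296292, plus strand: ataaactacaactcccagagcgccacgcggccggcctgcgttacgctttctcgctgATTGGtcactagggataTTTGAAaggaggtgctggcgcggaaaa
Kif11, chr19:37376282-37376381, plus strand: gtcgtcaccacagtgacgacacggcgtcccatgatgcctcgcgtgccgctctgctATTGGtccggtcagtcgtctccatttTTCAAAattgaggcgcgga
Prc1, chr7:80294376-80294475, plus strand: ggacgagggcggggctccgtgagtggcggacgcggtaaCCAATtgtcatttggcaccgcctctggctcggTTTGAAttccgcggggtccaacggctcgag
Top2a, chr11:99024190-99024289, minus strand: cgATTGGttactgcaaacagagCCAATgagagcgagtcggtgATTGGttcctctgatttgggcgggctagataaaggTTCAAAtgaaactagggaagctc

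In each of these sequences the homology region lies between the gene start and at least 1 CCAAT box further upstream. Cdk1 has 2 copies of TTTGAA, whose first bases lie 71 and 15 bases before the start, and in Cdc20, Espl1, Kif11, Prc1 and Top2a the copy nearest the start lies 18 to 30 bases before it.

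**Figure D1:**
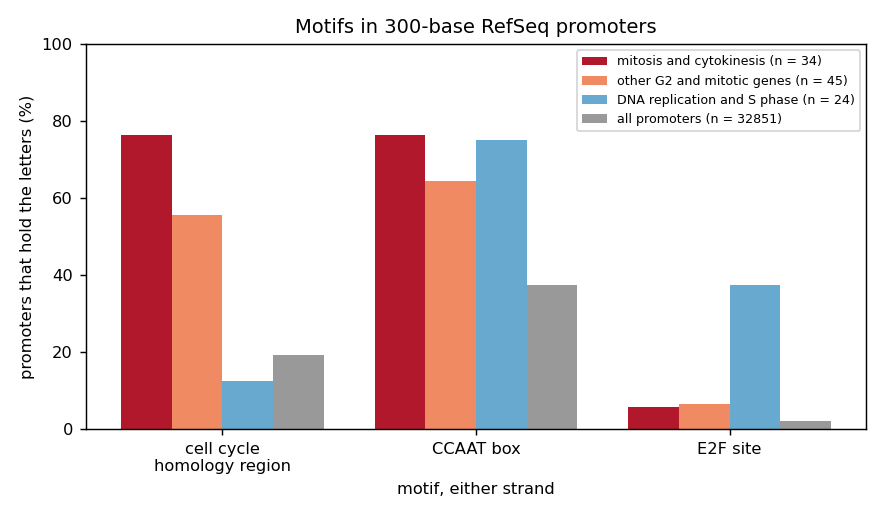
Share of 300-base RefSeq promoters (vertical axis, percent) that hold the letters of each element on either strand, for mitosis and cytokinesis genes (34 promoters), other G2 and mitotic genes (45), DNA replication and S phase genes (24) and all promoters (32851). The homology region stood in 76.5% of the mitosis and cytokinesis promoters and in 3 of 24 S phase promoters.

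RNA of the mitosis and cytokinesis genes was close to the control level in mutant lungs. Of 35 genes, 32 had a lower and 3 (Pttg1, Cdc20 and Aurkb) a higher mean in mutants, with a median log2 difference (mutant minus control) of -0.058, or 96.1% of the control level. Over all 22180 genes the median was 0.011, and 45.2% had a lower mean. Over the 11090 genes above the 50th percentile of mean level, where all 35 lie, the median was -0.019, and 58.8% had a lower mean. None of the 35 passed limma at an adjusted p under 0.05 (0.0631% of all genes passed), and 0 had an unadjusted p under 0.05 with a lower mean (5.15% of all genes did). The 35 differences ran from -0.13 (Nek2) to 0.078 (Pttg1), and 29 of them were under 0.1 in size. The 95% interval of every one included 0. In 32 genes the whole interval lay within 0.26 log2 units of 0, and the exceptions were Nek2, Cdca8 and Pttg1. In 5 genes (14.3%) the 3 mutant arrays all lay below the 3 controls, and in 0 genes all above. Lower groups without overlap made up 8.83% of all genes and 14.5% of the genes above the 50th percentile, so the share among the 35 was that of genes at their level. With mutant replicate 2 left out, 27 of 35 had a lower mean, as did 27 with control replicate 2 left out, and 29 when both mutant replicate 2 and control replicate 1 were dropped. Leaving out control replicate 1 alone gave 32. The genes lay high on the scale, at 8.29 to 12.51 log2 units.

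**Figure D2:**
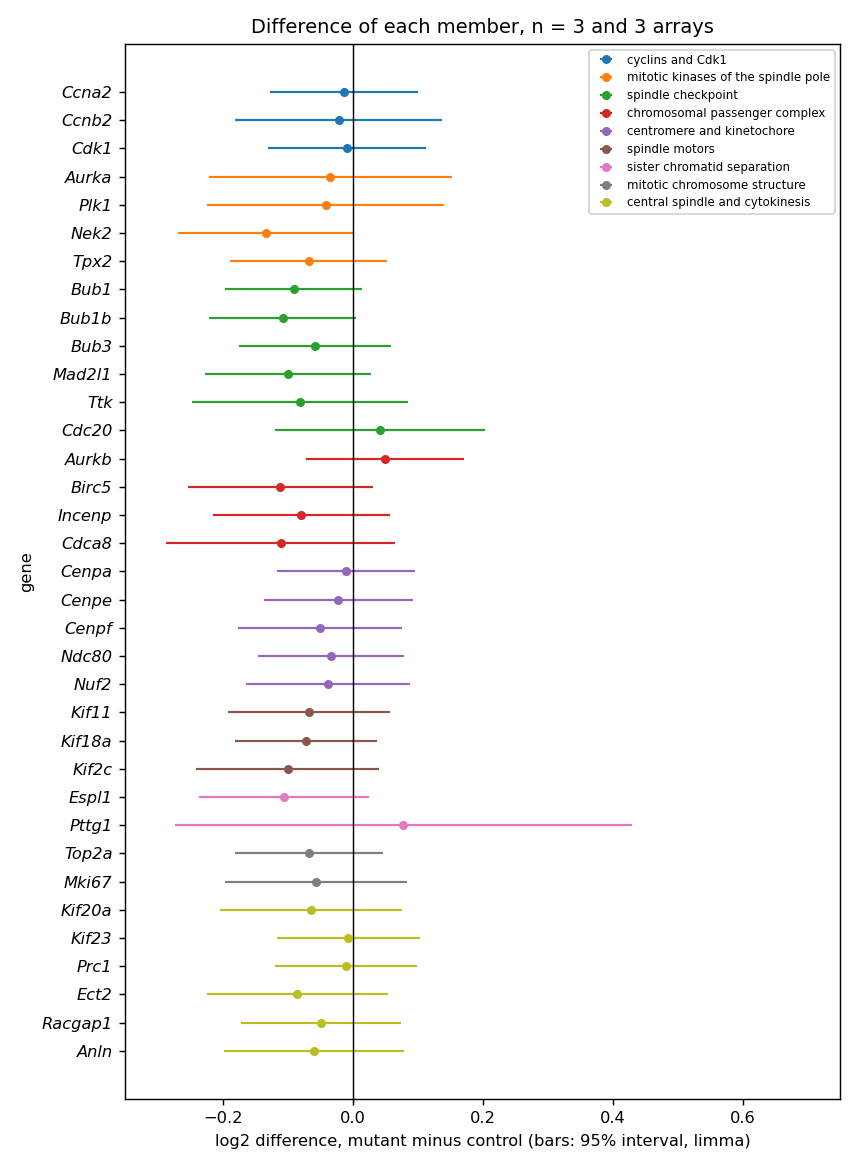
Log2 difference of each gene (horizontal axis, mutant minus control) with its 95% interval from limma, n = 3 and 3 arrays, coloured by role. All 35 intervals cross 0, most points lie slightly left of it, and Pttg1 has the widest interval, from -0.27 to 0.43.

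The genes that start mitosis were close to the control level. Cdk1, the kinase itself, had log2 values of 12.09, 11.96 and 12.07 in mutant lungs, against 12.04, 12.06 and 12.05 in control lungs. The mutant arrays lay on both sides of the controls, and the log2 difference was -0.0092 (SE 0.052, 95% interval -0.13 to 0.11, adjusted p = 0.958 by limma). Ccna2, the cyclin of S phase and mitotic entry, stood at 12.18, 12.14 and 12.18 in mutant lungs and at 12.14, 12.24 and 12.16 in control lungs (log2 difference -0.013). Ccnb2, a cyclin B, had means of 11.95 ± 0.084 in mutant and 11.97 ± 0.095 in control lungs (SD, n = 3 each). For these 3 genes the 95% intervals ran from -0.18 to 0.14 over all, and larger differences lie outside them.

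The kinases and partners that build the spindle poles had lower means, with wide spread between arrays. Aurka, the Aurora kinase of centrosomes, had log2 values of 11.13, 10.89 and 11.01 in mutant lungs, against 11.10, 11.12 and 10.92 in control lungs. Plk1, the Polo kinase that matures centrosomes, had 11.56, 11.38 and 11.50, against 11.41, 11.66 and 11.50. In both genes the groups overlapped, with log2 differences of -0.034 (SE 0.080) and -0.042 (SE 0.079). Tpx2, which activates Aurora A on spindle microtubules, differed by -0.068 (SE 0.052). Nek2, a kinase that splits the centrosome pair, had the largest difference of the 35 genes: 9.35, 9.24 and 9.21 in mutant lungs, against 9.34, 9.46 and 9.40 in control lungs. Mutant replicate 1 lay just above the lowest control, and the log2 difference was -0.13 (SE 0.058, 95% interval -0.27 to 0.0020, adjusted p = 0.406 by limma).

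Spindle checkpoint genes held 3 of the 5 genes whose groups did not overlap, all 3 lower in mutants. That was 3 of 6, a small set, against 8.83% of all genes and 14.5% of those above the 50th percentile. Over all 35 genes the share was 14.3%, and none of the 5 passed the test. Bub1, the kinase that recruits checkpoint proteins to kinetochores, had log2 values of 11.35, 11.35 and 11.40 in mutant lungs and 11.44, 11.48 and 11.46 in control lungs. The gap between the groups was small, and the log2 difference of -0.091 (SE 0.045, 93.9% of control) had an adjusted p of 0.455 by limma. Bub1b, which encodes BubR1, an inhibitor of Cdc20, had 11.25, 11.17 and 11.21 in mutant lungs and 11.29, 11.35 and 11.32 in control lungs (log2 difference -0.11, SE 0.049). Mad2l1, whose protein Mad2 binds Cdc20, had 11.74, 11.67 and 11.77 in mutant lungs and 11.77, 11.89 and 11.80 in control lungs (log2 difference -0.099, SE 0.055). In Mad2l1 the highest mutant and the lowest control were level at 2 decimals. Bub3, the partner of Bub1 and BubR1, and Ttk, the kinase Mps1 that switches the checkpoint on, differed by -0.058 (SE 0.050) and -0.081 (SE 0.071). Ttk was low in 1 array only, mutant replicate 2, at 9.94 against 10.14 to 10.20 in the other 5. Cdc20, the target of the checkpoint, went the other way, with 11.60, 11.39 and 11.59 in mutant lungs and 11.42, 11.54 and 11.49 in control lungs (log2 difference 0.042, SE 0.069). Its mutant arrays lay both above and below all controls.

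The chromosomal passenger complex, which corrects faulty attachments and later marks the midzone, held the other 2 genes without overlap, out of 4 measured. Birc5, which encodes the subunit survivin, had log2 values of 10.25, 10.10 and 10.28 in mutant lungs, against 10.29, 10.37 and 10.31 in control lungs (log2 difference -0.11, SE 0.061, adjusted p = 0.487 by limma). Incenp, the scaffold of the complex, had 9.97, 9.93 and 9.97 in mutant lungs, against 9.99, 10.14 and 9.98 in control lungs (log2 difference -0.079, SE 0.058). Here control replicate 2 made most of the difference, as the other controls lay just above the highest mutant. Cdca8, which encodes borealin, had means of 9.79 ± 0.077 in mutant and 9.91 ± 0.127 in control lungs (SD, n = 3 each) and overlapped. Aurkb, the kinase of the complex, had a higher mean in mutants, with 11.92, 11.84 and 11.85 against 11.88, 11.78 and 11.80 in control lungs (log2 difference 0.050, SE 0.052). The 4 subunits thus did not share 1 direction, and none of the 4 passed the test.

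**Figure D3:**
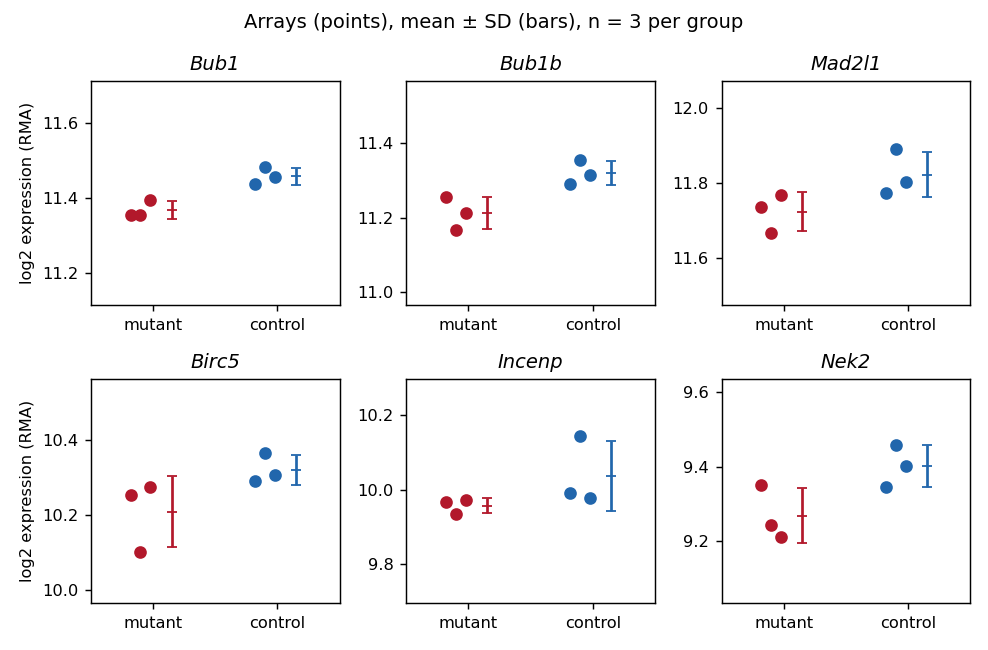
Log2 expression (vertical axis, RMA values, each panel spanning 0.6 units) of the 5 genes whose groups did not overlap and of Nek2, with arrays as points and mean ± SD beside them, n = 3 per group, mutant on the left. The gaps between groups are small: Bub1 reached 11.40 in mutant lungs, against a lowest control of 11.44.

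Centromere and kinetochore genes were also close to the control level. All 5 had lower means, with log2 differences from -0.050 to -0.0100. Cenpa, the histone H3 variant that marks centromeres, had 11.78, 11.75 and 11.77 in mutant lungs, against 11.74, 11.79 and 11.80 in control lungs. Ndc80 and Nuf2, partners in the complex that grips microtubules, differed by -0.034 (SE 0.048) and -0.038 (SE 0.054). Cenpe, the kinetochore kinesin, and Cenpf, a large coiled-coil protein of the outer kinetochore, differed by -0.022 and -0.050. In each of the 5 genes the groups overlapped. Among the spindle motors, Kif11, which pushes the poles apart, differed by -0.068 (SE 0.053), Kif18a, which dampens chromosome oscillation, by -0.072 (SE 0.047), and Kif2c, which depolymerises microtubules at centromeres, by -0.100 (SE 0.061). Kif2c had 10.98, 10.84 and 10.93 in mutant lungs, against 10.95, 11.10 and 11.00 in control lungs, so that 1 mutant array lay inside the control range.

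Separase and its inhibitor stood on opposite sides. Espl1, which encodes the protease that cuts cohesin, had log2 values of 9.66, 9.56 and 9.61 in mutant lungs, against 9.73, 9.78 and 9.64 in control lungs (log2 difference -0.11, SE 0.056, adjusted p = 0.475 by limma). Pttg1, which encodes securin, had 8.29, 8.60 and 8.86 in mutant lungs, against 8.60, 8.29 and 8.64 in control lungs. Its spread was the widest of all 35 genes in both groups (SD 0.29 in mutant and 0.19 in control lungs), and its log2 difference of 0.078 had an SE of 0.151. With single arrays left out that difference ran from -0.061 to 0.227, so its sign was not stable. Top2a, which untangles chromosomes, and Mki67, the proliferation marker Ki-67 that coats mitotic chromosomes, differed by -0.067 (SE 0.049) and -0.056 (SE 0.060). Mki67 had 12.41, 12.31 and 12.35 in mutant lungs, against 12.38, 12.51 and 12.35 in control lungs, and 2 of 3 mutant arrays lay inside the control range.

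All 6 genes of the central spindle and cytokinesis had lower means in mutants, by -0.0066 to -0.085, and their groups overlapped. Ect2, which activates RhoA at the cleavage site, differed most, with 11.84, 11.77 and 11.73 in mutant lungs and 11.88, 11.94 and 11.78 in control lungs (log2 difference -0.085, SE 0.060, adjusted p = 0.58 by limma). Racgap1 and Kif23, the partners that form centralspindlin, differed by -0.049 (SE 0.053) and -0.0066 (SE 0.047). Prc1, which bundles the midzone microtubules, had 11.47, 11.51 and 11.48 in mutant lungs, against 11.48, 11.55 and 11.48 in control lungs. Kif20a, a midzone kinesin, and Anln, which encodes the ring scaffold anillin, differed by -0.064 and -0.059, with SEs of 0.060 and 0.059.

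The genes varied together from array to array. Their mean differed by -0.051 between the groups, and its SD over the arrays within a group was 0.045 (mutant) and 0.038 (control). Mutant replicate 2 was the lowest array for 25 of the 35 genes (71.4%, against 20.7% of all genes). Control replicate 2 was the highest for 25 (71.4%, against 18.3% of all genes). The shares among genes at the level of the 35 are not given here. As the mean over the 35 genes, relative to the control mean, mutant replicates 1, 2 and 3 stood at -0.021, -0.103 and -0.029, against -0.025, 0.043 and -0.018 in control replicates 1, 2 and 3. Mutant replicates 1 and 3 thus lay close to control replicates 1 and 3. Mutant replicate 2, the lowest mutant array, and control replicate 2, the highest control array, made most of the distance between the groups. They are the extremes of these same values, so setting them aside must narrow that distance. Both stood apart in other genes as well, as did control replicate 1. No fit left out mutant replicate 2 and control replicate 2 together. Mutant replicate 2 lay below all controls in 29 of the 35 genes, mutant replicate 3 in 16 and mutant replicate 1 in 11. After each group's mean was removed, the correlation between 2 genes over the 6 arrays averaged 0.49 over the 595 pairs, against 0.0027 over all pairs of genes. Over the DNA replication and S phase genes that average was 0.65. Over the marker lists it ran from 0.015 (lung mesenchyme) to 0.96 (adult small intestine, where control replicate 1 stood apart). All such pairs share arrays, and the values describe these 6 arrays only. Pttg1 was the exception, with a negative correlation to 30 of the other 34 genes. Leaving out mutant replicate 2 gave a median difference of -0.025, leaving out control replicate 2 gave -0.031, and dropping both mutant replicate 2 and control replicate 1 gave -0.039.

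**Figure D4:**
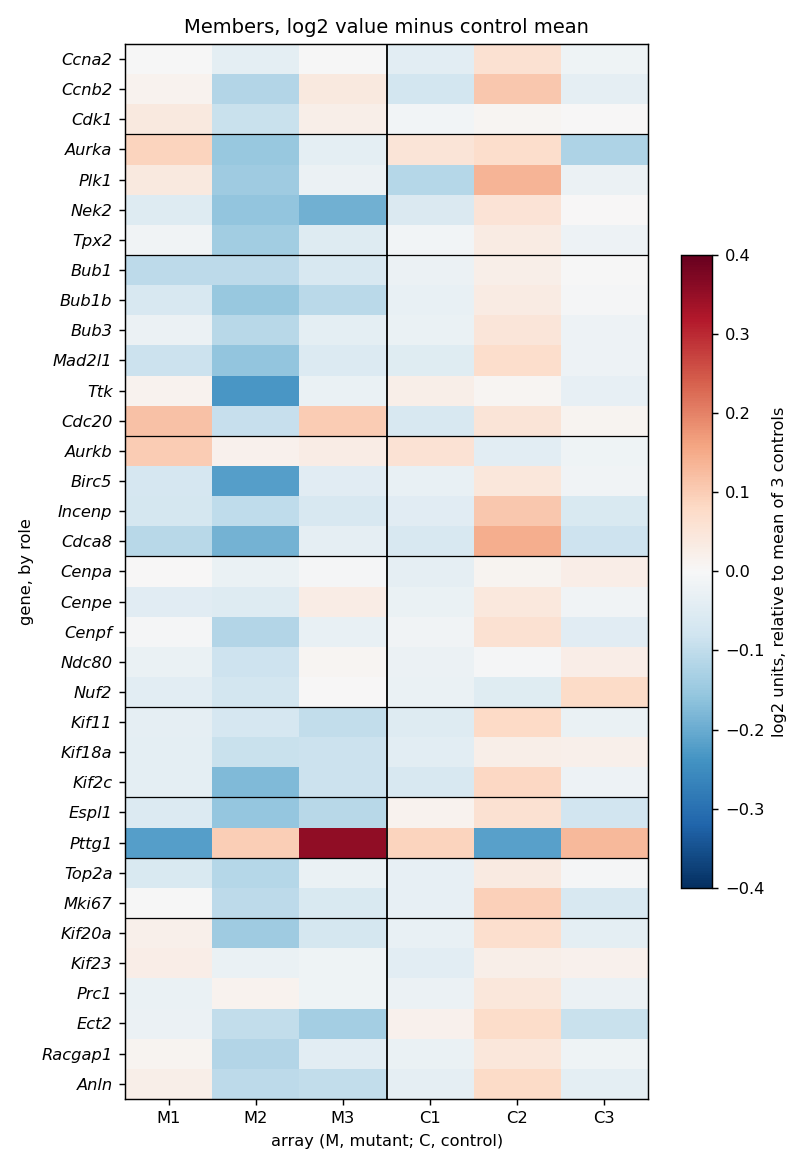
Log2 value of each gene on each array minus the mean of the 3 controls (colour), with mutant arrays M1 to M3 on the left, control arrays C1 to C3 on the right, and lines between roles. The columns M2 and C2 hold most of the colour, as the lowest array for 25 genes and the highest for 25, and Pttg1 has a pattern of its own.

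Other genes of the same programme were alike in having mostly lower means and most often the same lowest and highest arrays. They differed in that a larger share was lower without overlap or at an unadjusted p under 0.05 by limma. Among the 35 genes those were 14.3% and 0. Of 45 other measured G2 and mitotic genes, 41 had a lower mean in mutants (median log2 difference -0.080). None passed limma at an adjusted p under 0.05, while 6 of 45 were lower at an unadjusted p under 0.05, against 5.15% of all genes, and 0 were higher. The groups did not overlap in 14 (31.1%, lower in mutants), against 8.83% of all genes and 14.5% of those above the 50th percentile, where 44 of the 45 lie. The 4 with the smallest p were Sass6, of centriole assembly (-0.24, SE 0.072), Wee1, the kinase that holds Cdk1 inactive (-0.17, SE 0.054), Spag5, the spindle protein astrin (-0.17, SE 0.062), and Ckap2l, which encodes a spindle protein (-0.23, SE 0.087), with adjusted p of 0.292 to 0.364 by limma. Of these 45 genes, mutant replicate 2 was lowest in 35 and control replicate 2 highest in 29. With mutant replicate 2 left out, 35 had a lower mean, and 36 when control replicate 1 was dropped as well. Leaving out control replicate 2 alone gave 38.

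Regulators of mitotic transcription, that is MuvB and DREAM subunits, E2F factors and their partners, NF-Y subunits, Mybl2 and Foxm1, had lower means in 17 of 17 genes, with a median of -0.12 and differences from -0.24 to -0.042. The groups did not overlap in 8 of 17 (47.1%, lower in mutants), against 8.83% of all genes. Among genes above the 50th percentile, where all 17 lie, the share was 14.5%. At an unadjusted p under 0.05, 6 of 17 were lower, against 5.15% of all genes, and 0 passed limma after adjustment. E2f3 had 10.10, 10.03 and 10.01 in mutant lungs, against 10.17, 10.39 and 10.22 in control lungs (-0.21, SE 0.069, adjusted p = 0.314 by limma). E2f4, the E2F factor most often found in DREAM, had 10.07, 9.82 and 10.04, against 10.20, 10.31 and 10.14 (-0.24, SE 0.080). Tfdp1, the DNA-binding partner of E2F factors, had 11.81, 11.79 and 11.77, against 11.92, 11.93 and 11.92 (-0.13, SE 0.044). Lin54, the MuvB subunit that binds the homology region, had 9.97, 9.90 and 9.92, against 10.00, 10.11 and 10.11 (-0.14, SE 0.052). In these 4 genes every mutant array lay below every control. Without mutant replicate 2 the count with a lower mean was 15, with a median of -0.12, and without control replicate 2 the count was 16.

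DNA replication and S phase genes had lower means in 25 of 25, with a median of -0.084 and 0 past limma's threshold after adjustment (4 of 25 lower at an unadjusted p under 0.05, against 5.15% of all genes). Mutant replicate 2 was the lowest array for all 25. Without it 18 had a lower mean and the median was -0.033.

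Among Cdk inhibitors and p53 targets, 10 of 12 had a higher mean, with a median of 0.20, and this median rested on mutant replicate 2. With that array left out the median was 0.025, with 9 of 12 higher, and with control replicate 1 dropped as well it was -0.010, with 5 of 12 higher. Mdm2, which encodes the ubiquitin ligase of p53, had 10.01, 11.83 and 9.84 in mutant lungs, against 9.91, 9.98 and 10.00 in control lungs, and was high in mutant replicate 2 alone. Cdkn2c, which encodes the Cdk inhibitor p18, had 8.32, 9.60 and 8.05, against 8.12, 8.40 and 8.22. Both genes are named after their values were seen. Leaving out mutant replicate 2 turned both lower, to log2 differences of -0.042 and -0.065. Ccng1, a p53 target, rose by 0.54 (SE 0.059, adjusted p = 0.0368 by limma), the only 1 of 12 to pass, against 0.0631% of all genes. Its difference was 0.51 to 0.59 when single arrays were left out, but it passed in none of those fits (adjusted p 0.0851 to 0.215), in which 0 of all 22180 genes passed. Nor did it pass after a further quantile normalization (adjusted p = 0.0526 by limma) or with a replicate block (adjusted p = 0.188 by limma). Cdkn1a, which encodes the Cdk inhibitor p21, had 8.92, 9.46 and 8.72 in mutant lungs, against 8.34, 7.99 and 7.87 in control lungs (0.97, SE 0.19, adjusted p = 0.164). Trp53inp1 differed by 0.46 (adjusted p = 0.0778 by limma) and Btg2 by -0.21. In Ccng1, Cdkn1a and Trp53inp1 every mutant array lay above every control. In all, 4 of 12 were higher and 1 lower without overlap, while 2343 of all 22180 genes were higher without overlap. The list mean stood 0.149, 0.576 and 0.109 log2 units above the control mean in mutant replicates 1, 2 and 3, so the array with the lowest mitotic mean was also the one with the highest mean of this list. The part of these genes in the mitotic values was not tested.

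**Figure D5:**
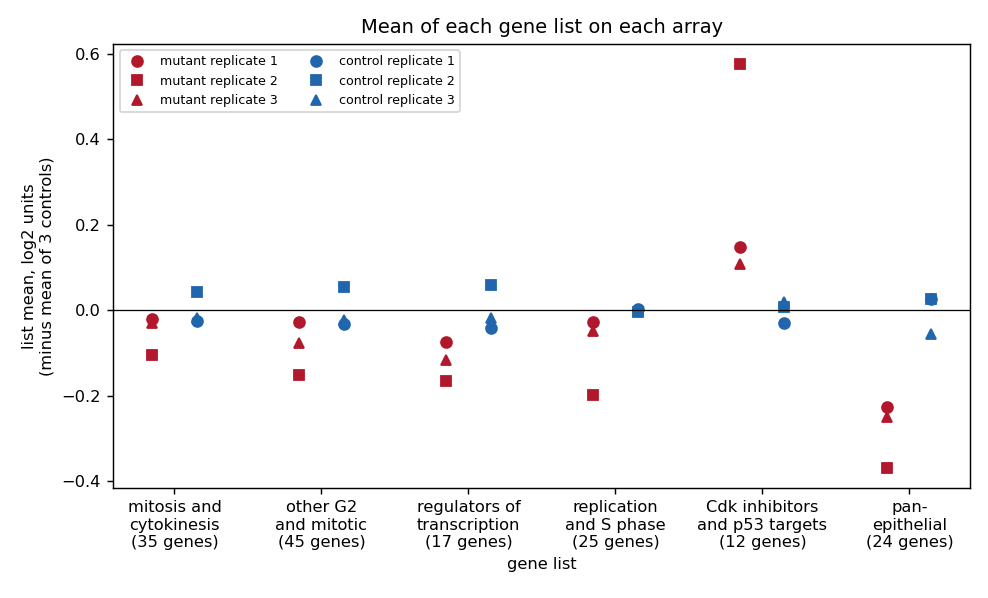
Mean of each gene list on each array (vertical axis, log2 units relative to the mean of the 3 controls), mutant arrays left and control arrays right in each list, with symbols for replicates. For mitosis and cytokinesis genes mutant replicate 2 lies lowest at -0.103 and control replicate 2 highest at 0.043, with the other 4 arrays between -0.029 and -0.018.

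Epithelial RNA moved with the groups. All 24 measured pan-epithelial markers had lower means in mutants (median log2 difference -0.29), against 45.2% of all genes. The groups did not overlap in 18 of 24 (75%, lower in mutants), against 8.83% of all genes. At an adjusted p under 0.05 by limma 1 passed, against 0.0631% of all genes. The list mean lay at -0.37 to -0.23 in mutant arrays, against -0.054 to 0.028 in control arrays. Lung mesenchyme markers had a median of 0.17 (9 of 16 higher, 1 past the threshold), with list means of 0.128 to 0.171 in mutant and -0.010 to 0.011 in control arrays. They did not share 1 direction. Tbx4, Tbx5, Foxf1, Tcf21, Meox2, Hoxa5 and Wnt2 had lower means (log2 differences -0.10 to -0.0036). Dcn, Lum, Prrx1, Pdgfra, Twist1, Fgf10, Col1a1, Col1a2 and Col3a1 had higher means (0.16 to 0.61). Leukocyte markers had a median of 0.21 (7 of 10 higher, 0 past the threshold), endothelial markers -0.018 (7 of 10 lower) and erythroid markers -0.049 (5 of 7 lower). Leaving out mutant replicate 2 gave 23 of 24 lower and a median of -0.22 for the epithelial markers, and 0.12 for mesenchyme. Over single arrays left out, the endothelial median ran from -0.061 to 0.0028 and the erythroid median from -0.12 to -0.0053. With the epithelial list mean as a covariate, 8 of the 35 mitosis and cytokinesis genes had a negative difference and the median was 0.095, with a median SE of 0.151 in place of 0.054 and an adjusted p of 0.900 or more for each gene. That list mean did not overlap between the groups. The part of cell composition in the small mitotic differences was not tested.

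The log2 differences of genes with and without the promoter elements are given as a description. The 23 measured genes with a homology region in a RefSeq promoter had a median log2 difference of -0.056 (22 lower), and the 7 with a promoter and none had -0.072 (6 lower). With both elements the median was -0.053 over 20 genes, and without both it was -0.066 over 10. Whether genes with and without the elements differ was not tested.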

How the data were processed

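The authors deposited log2 expression values for 41345 probe sets on 6 arrays. The submitters' processing notes name RMA and oligo. Their versions and any filters: not given in the sources used here. The log2 scale was read from the values (3.55 to 14.0). Because RMA brings arrays to a common distribution, a shift shared by most genes would not show. Depth does not apply to arrays, and 3 arrays per group limit the precision.

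Probe sets with 1 symbol (23521) gave 22180 genes, by the probe set with the highest mean where there were several (each of the 35 genes had 1). All genes were fitted with limma 3.58.1 under R 4.3.3, using lmFit and eBayes with a group term alone. P-values were two-sided and adjusted by Benjamini-Hochberg over all 22180 genes, with a threshold of 0.05, and the fit was tested on simulated data. Lists are described by counts and medians. All listed genes are named, with up to 4 genes of smallest p in each related list. The genes, lists and bounds were chosen with earlier results of these data known, and the Y-linked list, and the settings run on the Cdk inhibitor and marker lists, were added after seeing the data. Promoters are RefSeq's (GRCm38.p6), and a planned count of a protein motif was not run. Figures used matplotlib 3.10.9. Alternatives were another normalization, filters, probe set summaries, variance models, weights, a replicate block, a covariate, left-out arrays and a threshold of 0.10.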

Additional observations from a re-analysis of the deposited data

How the results depend on the processing

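No setting called any of the 35 genes at an adjusted p under 0.05 or 0.10, and the smallest adjusted p over 17 settings was 0.308. At an unadjusted p under 0.05, 0 to 4 genes passed. Of 595 gene and setting values, 543 kept their direction and 52 did not. The filters, probe set summaries, variance models and replicate block cannot change a difference of these genes, so their values kept direction by construction. In 29 of the 35 genes the direction changed in some setting. Adding the epithelial list mean as a covariate gave a median of 0.095 and 8 genes with a lower value. There the log2 differences were 0.069 (Ccna2), 0.241 (Ccnb2), 0.174 (Cdk1), 0.436 (Aurka), 0.229 (Plk1), 0.130 (Tpx2), 0.0054 (Bub1b), 0.095 (Bub3), 0.055 (Mad2l1), 0.321 (Ttk), 0.155 (Birc5), 0.057 (Incenp), 0.166 (Cdca8), 0.048 (Cenpe), 0.171 (Cenpf), 0.036 (Ndc80), 0.108 (Kif2c), 0.123 (Espl1), -0.261 (Pttg1), 0.043 (Top2a), 0.157 (Mki67), 0.185 (Kif20a), 0.024 (Kif23), 0.090 (Ect2), 0.139 (Racgap1) and 0.122 (Anln). The medians of the other mitotic, regulator, S phase and Cdk inhibitor lists were 0.105, 0.021, 0.148 and -0.17. The cause was not tested, and the median SE was 0.151. A further quantile normalization gave 26 of 35 genes with a lower mean and a median of -0.035, with 0.0090 (Ccna2), 0.013 (Cdk1), 0.021 (Cenpa), 0.012 (Cenpe), 0.026 (Kif23) and 0.013 (Prc1), a shift of the median of all genes to 0.026, and 3 genes without overlap. Array weights gave 0.00099 for Cdk1. Without control replicate 1 and mutant replicate 2 together, Cdk1 was 0.025, Aurka 0.051 and Ttk 0.0063, and the Cdk inhibitor median was -0.010. There 15 genes did not overlap, 12 lower and 3 higher in mutants. Fewer arrays overlap less often, and 18.9% of all genes were then lower without overlap. With all arrays that share was 8.83% of all genes and 14.5% of genes above the 50th percentile. Leaving out single arrays gave 5 to 16 genes without overlap. Those lower in mutants were 16 without mutant replicate 1 (against 15.2% of all genes) and 12 without control replicate 1 (14.6%). They were 9 without mutant replicate 3 (13.0%) and 8 without control replicate 3 (12.8%). Without mutant replicate 2 or control replicate 2 they were 5 (12.3% and 11.9%). Why these counts differed was not tested. The same fits gave ranges of -0.034 to 0.016 (Ccna2), -0.058 to 0.032 (Ccnb2), -0.033 to 0.031 (Cdk1), -0.096 to 0.024 (Aurka), -0.099 to 0.027 (Plk1), -0.028 to 0.0031 (Cenpa), -0.063 to 0.00025 (Nuf2), -0.061 to 0.227 (Pttg1), -0.027 to 0.0058 (Kif23) and -0.023 to 0.012 (Prc1). Same-numbered arrays did not deviate together (correlations -0.045, -0.061 and 0.074). The replicate block cannot change a difference in this balanced layout, so the median stayed at -0.058. With the block 0 genes passed over all 22180, against 14 without it, and the block leaves less information on the spread between arrays. Over all genes, 0 to 50 were called.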
